A study of Homo sapiens with 9 samples.

Results

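Ribosome footprints of 10 genes that encode translation factors were followed in Jurkat cells at rest and after activation. The genes were fixed by Ensembl ID: EEF1A1, EEF1B2, EEF1G, EEF2 and EIF5A for elongation, EIF4E, EIF4G1, EIF4A1 and EIF4B for initiation, and EIF4EBP1 for an inhibitor of initiation. All 10 were present among the 19569 gene IDs of the count table, and all 10 passed the low-count filter that left 13920 IDs for testing. The 9 libraries came from Jurkat clone E6-1, an established human T lymphoblast line. They comprised 3 biological replicates of each group, namely resting cells and cells given 5 h or 12 h of activation. For activation the culture wells carried anti-CD3 (coating solution 10 µg/mL) and the medium anti-CD28 (5 µg/mL), antibodies that trigger the T cell receptor complex and its costimulatory receptor CD28. Every group was therefore the same leukaemia line, not primary T cells.

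Initiation on most mRNAs starts at the 5′ cap, which is bound by the protein eIF4E. The scaffold eIF4G joins eIF4E to the RNA helicase eIF4A, eIF4B stimulates that helicase, and 4E-BP1 (the EIF4EBP1 product) competes with eIF4G for eIF4E until the kinase mTOR phosphorylates it. During elongation eEF1A brings aminoacyl-tRNA to the ribosome, the eEF1B complex (which holds the EEF1B2 and EEF1G products) reloads eEF1A with GTP, eEF2 drives translocation, and eIF5A helps the ribosome past stalls. Many mRNAs of elongation factors and ribosomal proteins begin with a C followed by a run of pyrimidines, the 5′ terminal oligopyrimidine (TOP) tract, through which mTOR and the protein LARP1 set their translation. T cell activation is known to raise mTOR activity and protein synthesis.

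The listed start sites were searched for such a beginning, also to set EEF1B2 beside EEF2, which moved in the opposite direction. RefSeq promoter sequences (build GRCh38.p14) matched 9 of the 10 genes. The windows below run 5′ to 3′ on the gene's strand from 40 bases before the listed transcript start to 20 bases after it. Capitals mark TATAA where its first letter lies 40 to 21 bases before the start, and an unbroken run of at least 5 pyrimidines that opens with C at the start itself, both read on the gene's strand only.
EEF1B2, the second of 2 listed starts, chr2:206159855-206159914, plus strand: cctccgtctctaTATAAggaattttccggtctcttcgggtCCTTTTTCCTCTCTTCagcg
EEF2, chr19:3985444-3985503, minus strand: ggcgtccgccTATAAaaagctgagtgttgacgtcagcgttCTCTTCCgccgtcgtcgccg
EEF1A1, chr6:73521013-73521072, minus strand: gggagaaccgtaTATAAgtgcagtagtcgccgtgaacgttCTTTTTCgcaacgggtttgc
EIF4B, chr12:53006416-53006475, plus strand: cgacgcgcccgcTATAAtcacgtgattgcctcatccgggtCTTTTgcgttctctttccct
EIF4A1, chr17:7572785-7572844, plus strand: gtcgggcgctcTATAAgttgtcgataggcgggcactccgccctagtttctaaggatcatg
EEF1G, chr11:62573872-62573931, minus strand: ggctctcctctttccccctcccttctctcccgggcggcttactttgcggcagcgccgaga
EIF4E, chr4:98929114-98929173, minus strand: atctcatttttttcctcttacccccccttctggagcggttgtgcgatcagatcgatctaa

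The pyrimidine run spanned 16 bases at EEF1B2, 7 at EEF2, 7 at EEF1A1 and 5 at EIF4B. These 4 genes also had TATAA in the searched stretch, as did EIF4A1, whose run at the start was 3 bases long. Neither feature was found at the starts listed for EEF1G, EIF4E, EIF4G1 (3 starts) or EIF5A (6 starts). Of 35116 promoters in the same table, 4.07% had such a run, 3.89% had the TATAA and 0.094% had both. Among the 22199 promoters of protein-coding genes the shares were 4.54%, 4.88% and 0.131%. These shares count single listed starts. The genes above were counted by a match at any of their starts, 17 starts in all. A match is a description of these letters, and which start the cells used was not measured here. A run that opens beside the listed base was not counted, so the lack of a match does not show that an mRNA lacks the tract.

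Levels below are in CPM, the count of a gene over the library size after edgeR's TMM factor has adjusted that size. Library totals ran from 4343515 to 18506509 counts, and the 10 genes together took 0.885% to 1.01% of the counts of a library. That summed share averaged 0.967% ± 0.0587 at 5 h and 0.965% ± 0.0370 at rest (SD, n = 3 each). At 12 h it was 0.948% ± 0.0549, against 0.965% ± 0.0370 at rest. The groups overlapped in both cases. The share is given as a description, since an exact permutation test of 3 libraries against 3 cannot go below a p of 0.1. Over TMM-scaled library sizes, on which the gene levels below rest, the sum was lower and did not overlap rest, at 0.946% ± 0.0395 at 5 h and 0.900% ± 0.0486 at 12 h, against 1.04% ± 0.0240 at rest. Whether the sum was lower therefore depended on the scaling. EEF1A1 alone took 0.422% to 0.517% of the counts of a library and weighs heavily in the sum. Without EEF1A1 the share over library totals was 0.486% ± 0.0238 at 5 h and 0.489% ± 0.0216 at 12 h. At rest it was 0.465% ± 0.0167, and the groups overlapped. A footprint count reflects both the amount of an mRNA and its translation, and in bulk samples these, and any difference in the makeup of the cells, cannot be told apart.

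**Figure D1:**
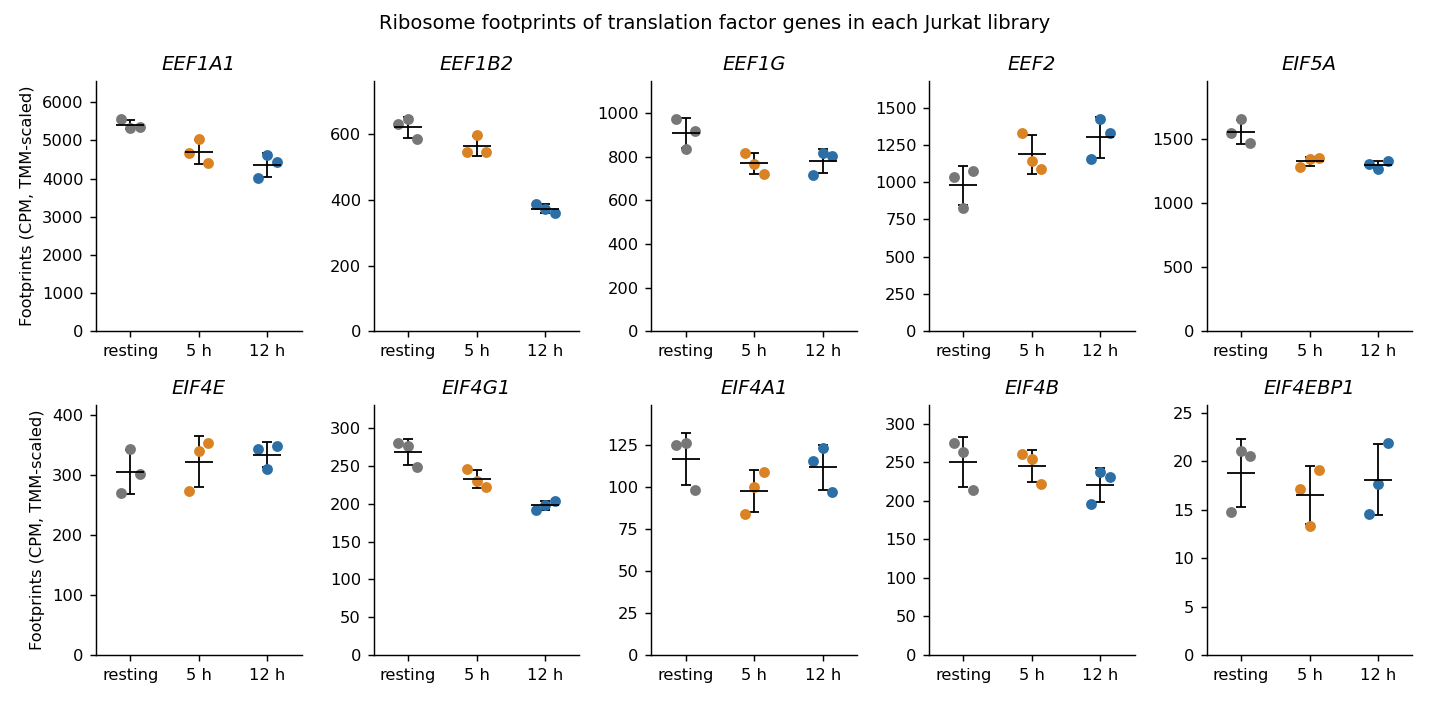
Footprints of the 10 genes in every library, as CPM after TMM scaling (vertical axes from 0), for resting cells and for cells activated for 5 h and 12 h. Points are libraries, and bars show the mean and SD of 3 replicates; EEF1B2 drops at 12 h to a mean of 373 CPM, and EEF2 climbs to 1301 CPM.

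Each gene was tested on counts with edgeR's quasi-likelihood test, with p-values adjusted over all 13920 IDs and a call at an adjusted p under 0.05. At 5 h against rest 4 of the 10 genes were called: EEF2 rose, and EEF1A1, EEF1G and EIF5A fell. Over all IDs tested 34.5% were called, 16% as rises and 18.4% as falls. At 12 h against rest 6 of the 10 were called: EEF2 rose, and EEF1B2, EIF4G1, EEF1A1, EIF5A and EEF1G fell. The background there was 35.1% called, 15.8% as rises and 19.3% as falls. The balance of rises and falls depended on the scaling. With library totals 1 gene rose and 0 fell at 5 h and 2 rose and 2 fell at 12 h, while over all IDs 3112 rose and 1756 fell at 5 h and 3497 rose and 1671 fell at 12 h, against 2230 and 2567 and then 2204 and 2683 with TMM. With TMM factors from abundant IDs alone, those averaging at least 250 CPM, 2 genes rose and 0 fell at 5 h and 2 rose and 1 fell at 12 h, beside 3909 rises and 1294 falls over all IDs at 5 h and 4272 and 1287 at 12 h. EEF2 at both times and EEF1B2 at 12 h were called in the same direction under all of these scalings. The median log2 fold change of the 10 genes was -0.20 at 5 h and -0.21 at 12 h, beside 0.07 and 0.04 over all IDs. Over IDs averaging at least 250 CPM, to which 6 of the 10 genes belong, it was -0.24 at both times. By TMM-scaled CPM, 5 of the 10 genes did not overlap rest at 5 h and 6 did not at 12 h. Of all IDs, 45.7% and 45.8% likewise showed no overlap with rest. Both comparisons use the same resting libraries. At 12 h against 5 h 2 of the 10 were called, EEF1B2 and EIF4G1, both lower, beside 25.1% of all IDs called and 13.5% called lower.

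EEF1B2 (ENSG00000114942.14), the exchange factor subunit that returns eEF1A to its GTP form, had the largest change among the 10 genes, and it came late. Its footprints stood at 633, 646 and 586 CPM in the resting libraries, at 547, 599 and 545 CPM at 5 h and at 389, 371 and 360.1 CPM at 12 h. Resting and 5 h libraries overlapped, while every 12 h library lay far below all the others. The mean was 373 ± 14.5 CPM at 12 h, against 622 ± 31.5 at rest (SD, n = 3 each), a log2 fold change of -0.74 ± 0.08 (SE) or 39.9% lower, with an edgeR adjusted p of 6.19e-08. Between 12 h and 5 h it fell by 0.59 ± 0.08 on the log2 scale, with an edgeR adjusted p of 2.30e-06. At 5 h against rest the value was -0.14, with a 95% interval from -0.30 to 0.01 and an edgeR adjusted p of 0.156, and its sign turned under 2 of 4 other scalings. The fall at 12 h was called under all 4 of those scalings, at -0.72 to -0.44.

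EEF2 (ENSG00000167658.16), the translocation factor, was the single gene of the 10 called higher than at rest with TMM scaling. It had 1035, 825 and 1073 CPM in the resting libraries, 1332, 1139.9 and 1088 CPM at 5 h and 1152, 1422.5 and 1328 CPM at 12 h. All activated libraries lay above all resting ones, and the 5 h and 12 h libraries overlapped. At 5 h it averaged 1186 ± 129 CPM, against 978 ± 134 at rest, a log2 fold change of 0.28 ± 0.09 with an edgeR adjusted p of 0.0243. At 12 h it averaged 1301 ± 137 CPM, against the same resting 978, a log2 fold change of 0.41 ± 0.09 or 33% higher, with an edgeR adjusted p of 0.00141. The rise kept its sign and its call under all 4 other scalings, at 0.26 to 0.52 for 5 h and 0.42 to 0.69 for 12 h. The call at 5 h rested on single libraries: without resting replicate 2 the value was 0.16 with an edgeR adjusted p of 0.160, and without 5 h replicate 1 it was 0.18 with an adjusted p of 0.150.

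EEF1A1 (ENSG00000156508.19), which delivers aminoacyl-tRNA, fell modestly at both times. It stood at 5558, 5339.5 and 5342 CPM in the resting libraries, at 4668, 5035 and 4405 CPM at 5 h and at 4024, 4624 and 4429 CPM at 12 h. With TMM scaling the resting libraries were the highest, and the 2 activated times overlapped. Over library totals both activated times overlapped rest. There 5 h replicate 2 took 0.516% and 12 h replicate 2 took 0.486%, against 0.478% in resting replicate 2. The log2 fold change was -0.20 ± 0.06 at 5 h, with an edgeR adjusted p of 0.00845, and -0.31 ± 0.06 at 12 h, with an adjusted p of 0.000163. Neither call held with library totals alone as the scaling, at -0.06 and -0.12, and under scaling to abundant IDs the values were 0.04 and -0.02. RefSeq lists 50 pseudogenes named after EEF1A1, 13 after EIF4A1, 9 after EIF4B, 8 each after EEF1B2 and EEF1G, 5 after EIF4E, 3 after EIF5A and 2 after EIF4EBP1. Short fragments of these 8 genes could be shared or split between copies in the counting, so the sizes of their changes are uncertain, while none is listed for EEF2 or EIF4G1.

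EEF1G (ENSG00000254772.10), the subunit that anchors the eEF1B complex, was called lower at both times, by less than EEF1B2 at 12 h. It had 971, 833 and 916 CPM in the resting libraries, 817.5, 765 and 721.5 CPM at 5 h and 718, 816 and 804.5 CPM at 12 h. Its log2 fold change was -0.24 ± 0.08 at 5 h and -0.22 ± 0.08 at 12 h, with edgeR adjusted p of 0.0180 and 0.0298. The highest activated libraries, at 817.5 and 816 CPM, lay just under the lowest resting one, at 833 CPM. Over library totals 5 h replicate 1 and 12 h replicate 2, at 0.0854% and 0.0858%, lay above resting replicate 2, at 0.0745%. Under scaling to abundant IDs the sign turned, to 0.01 and 0.07. At 5 h the call was also lost with library totals, at -0.09 with an edgeR adjusted p of 0.369, and without resting replicate 1, at -0.19 with an adjusted p of 0.0930. At 12 h it was lost under 2 of the other 3 scalings. Leaving out resting replicate 1, resting replicate 3 or 12 h replicate 1 also lost it, with edgeR adjusted p of 0.124, 0.0623 and 0.157. A filter of at least 50 counts in 3 libraries lost it too, at -0.14 with an edgeR adjusted p of 0.151.

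EIF5A (ENSG00000132507.18), which carries the modified lysine hypusine, kept a lower level at both times. The resting libraries held 1551, 1656 and 1469.6 CPM, those at 5 h 1285, 1342 and 1352 CPM and those at 12 h 1308, 1268 and 1327 CPM. With TMM scaling all activated libraries lay below all resting ones and close to each other. Of all IDs, 45.7% lacked overlap with rest at 5 h and 45.8% at 12 h. Over library totals the 5 h libraries still lay below rest. There 12 h replicate 3, at 0.141% of the counts, lay above resting replicate 3, at 0.140%. The log2 fold change was -0.23 ± 0.06 at 5 h and -0.26 ± 0.06 at 12 h, with edgeR adjusted p of 0.00569 and 0.00229. With library totals as the scaling these were -0.09 and -0.07 and not called, and under scaling to abundant IDs the sign turned, to 0.02 and 0.03.

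With TMM scaling, more of the abundant IDs were called lower than higher, and the calls in that class were not counted under other scalings. The class holds the 755 IDs that average at least 250 CPM, and 6 of the 10 genes belong to it. In that class 53.5% of IDs were called lower and 16% higher at 5 h, and 51.7% lower and 16.3% higher at 12 h, with a median log2 fold change of -0.24 at both times. The values of EEF1A1, EEF1G and EIF5A lay near the middle of the class at both times: between 43.7% and 54.3% of its IDs had a lower log2 fold change. EEF1B2 moved within it, with 60.3% of the class below it at 5 h and 18.1% at 12 h. For EEF2, 86.1% of the class lay below it at 5 h and 89.4% at 12 h.

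**Figure D2:**
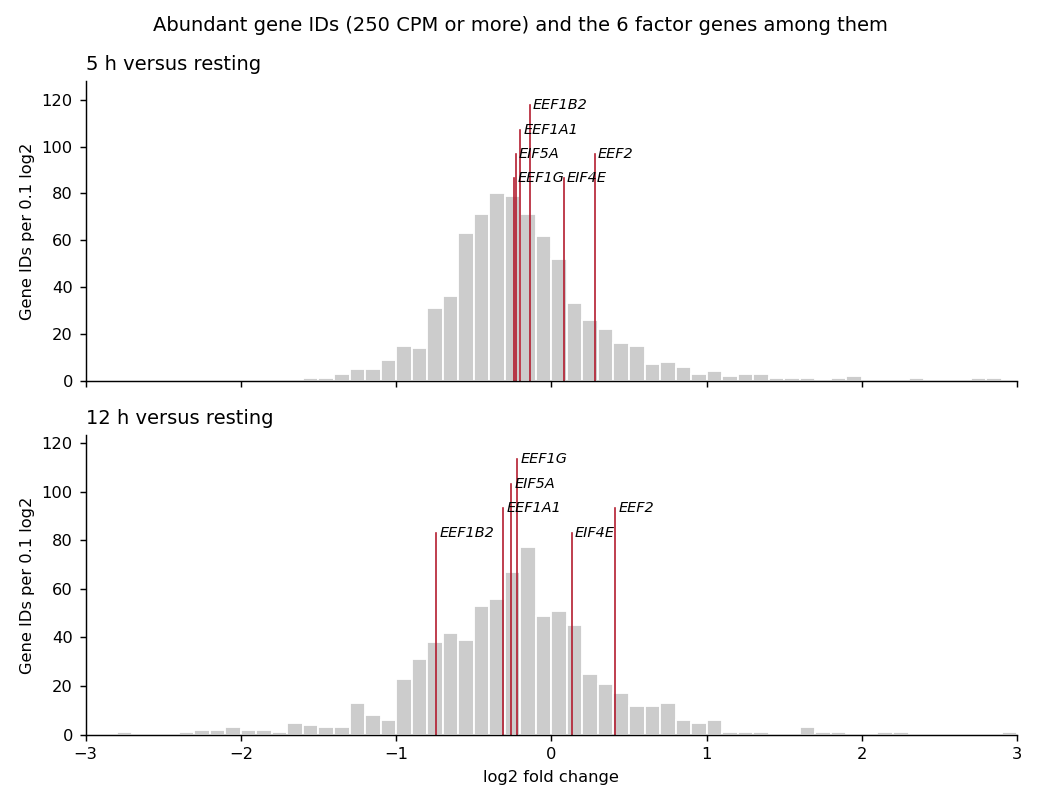
Histograms of the log2 fold change of the 755 gene IDs averaging at least 250 CPM, at 5 h versus resting (top) and 12 h versus resting (bottom), in bins of 0.1, with red lines at the 6 factor genes in that class. With TMM scaling, EEF1A1, EEF1G and EIF5A sit near the class median of -0.24. EEF1B2 lies in the lower flank at 12 h, and EEF2 lies in the upper flank at both times.

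Among the initiation factors, EIF4G1 (ENSG00000114867.22), the scaffold of the cap-binding complex, changed most. Its footprints were 281, 277 and 249 CPM in the resting libraries, 246, 231 and 223 CPM at 5 h and 192, 198 and 204 CPM at 12 h. With TMM scaling the groups did not overlap at any of the 3 comparisons. Of all IDs, 45.7% lacked overlap at 5 h versus resting and 45.8% at 12 h versus resting. At 12 h versus 5 h the share was 39.1%. Over library totals the 5 h and resting libraries overlapped. There EIF4G1 took 0.0257% of the counts in 5 h replicate 1 and 0.0237% in resting replicate 3. At 12 h it averaged 198 ± 6.11 CPM, against 269 ± 17.2 at rest, a log2 fold change of -0.44 ± 0.09 with an edgeR adjusted p of 0.000279. This call was lost under scaling to abundant IDs, at -0.15 with an edgeR adjusted p of 0.151, and held under the other 3 scalings. At 5 h the value was -0.21 with an edgeR adjusted p of 0.0654, and it was 0.04 under scaling to abundant IDs. It was called lower at 5 h in 5 other alternatives, with adjusted p of 0.0203 by DESeq2, 0.0443 by limma voom, 0.0349 by limma on the authors' log2 table, 0.0384 by edgeR without resting replicate 3 and 0.0424 without 5 h replicate 1. Between 12 h and 5 h it fell by 0.24 on the log2 scale with an edgeR adjusted p of 0.0471, a call lost in 15 of 18 alternatives, each of the 6 libraries compared left out in turn among them (adjusted p 0.0842 to 0.158).

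EIF4E (ENSG00000151247.13), the cap-binding protein itself, passed no test. It had 269, 342 and 301 CPM in the resting libraries, 273, 340 and 353 CPM at 5 h and 342.5, 309 and 349 CPM at 12 h, and all groups overlapped. The log2 fold change was 0.08 at 5 h, with a 95% interval from -0.13 to 0.29, and 0.13 at 12 h, with an interval from -0.08 to 0.34. Under scaling to abundant IDs it was called higher at both times, at 0.33 and 0.43, with edgeR adjusted p of 0.00446 and 0.000466. With library totals as the scaling it was called at 12 h, at 0.33 with an adjusted p of 0.00740.

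EIF4A1 (ENSG00000161960.16), the helicase, ranged from 83.9 to 126 CPM over the 9 libraries with all groups overlapping. Its log2 fold change was -0.25 at 5 h and -0.06 at 12 h, with edgeR adjusted p of 0.111 and 0.729. Without resting replicate 3 or 5 h replicate 3 the 5 h value was called, at -0.37 and -0.38 with edgeR adjusted p of 0.0328 and 0.0387. EIF4B (ENSG00000063046.18), the helicase's cofactor, ranged from 196 to 275 CPM and also overlapped throughout. Its values were -0.03 at 5 h, with a 95% interval from -0.24 to 0.18, and -0.19 at 12 h, with an interval from -0.40 to 0.03. Without resting replicate 3 the 12 h value was called, at -0.30 with an edgeR adjusted p of 0.0372. The sign of EIF4A1 at 12 h and of EIF4B at both times turned under 2 of 4 other scalings.

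EIF4EBP1 (ENSG00000187840.5), the inhibitor that holds eIF4E away from eIF4G, had 81 to 352 counts in a library, which limits its precision. It ranged from 13.3 to 21.9 CPM, and replicates of 1 group spanned most of that range. The log2 fold change was -0.19 at 5 h, with a 95% interval from -0.60 to 0.23, and -0.06 at 12 h, with an interval from -0.49 to 0.37. The sign turned under 1 of 4 other scalings at 5 h and under 2 at 12 h. A fall of the size seen for EEF1B2 at 12 h lies outside both intervals. A change of the size seen for EEF2 at 5 h, in either direction, lies within the interval at 12 h and was not detectable there.

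**Figure D3:**
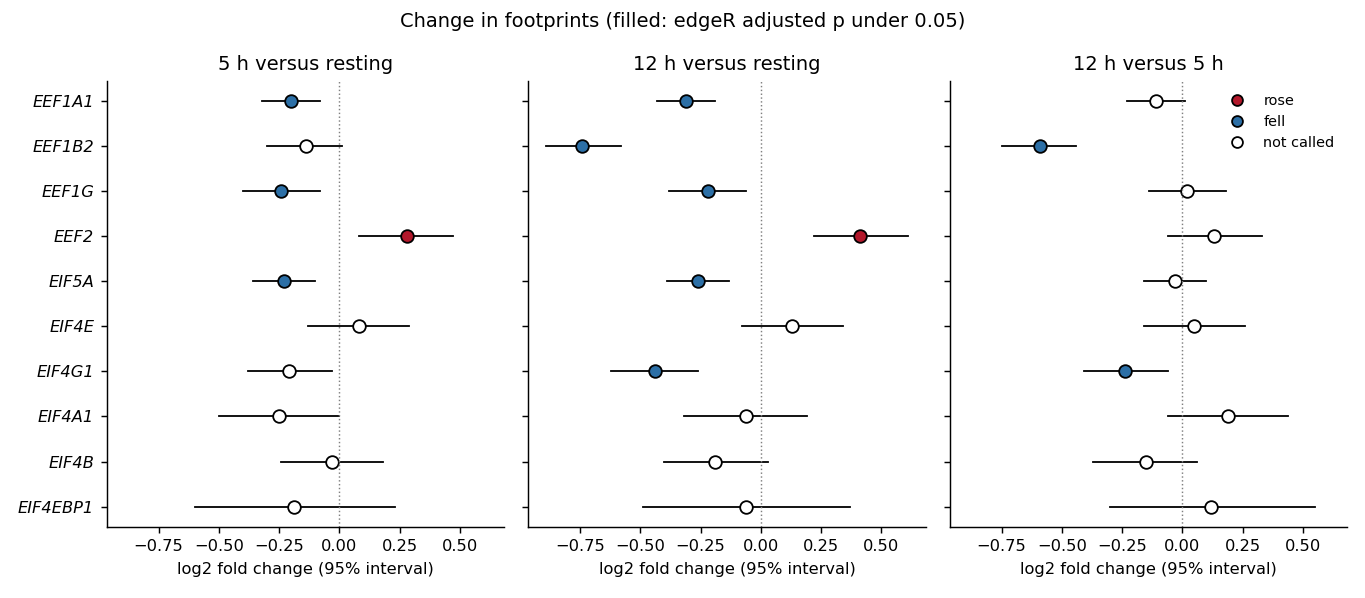
Log2 fold change of each gene with its 95% interval in the 3 comparisons, where filled points passed edgeR's quasi-likelihood test at an adjusted p under 0.05 (red rose, blue fell) and open points did not. EEF1B2 at -0.74, EIF4G1 at -0.44 and EEF2 at 0.41 stand farthest from 0 at 12 h versus resting, and EEF1B2 at -0.59 at 12 h versus 5 h.

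Ratios of counts within a library do not depend on how libraries are scaled, and 4 of them were tested in 3 comparisons with a two-sided exact permutation test. With 3 libraries against 3 the smallest p is 0.1, and after adjustment over the 12 tests the smallest was 0.2, so no ratio could pass. A ratio here compares counts that also depend on gene length, so only its change between groups is read. The groups did not overlap in 6 of the 12 tests. For levels of single IDs the share without overlap was 45.7% at 5 h versus resting, 45.8% at 12 h versus resting and 39.1% at 12 h versus 5 h. For ratios of other gene pairs it was not measured, and the 4 ratios were chosen with earlier results of these data known.

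The ratio of EEF1B2 to EEF1G, whose products sit in the same complex, was 0.652, 0.776 and 0.640 in the resting libraries, 0.670, 0.783 and 0.755 at 5 h and 0.542, 0.455 and 0.448 at 12 h. All 12 h libraries lay below all others. The geometric mean was 0.479 at 12 h and 0.686 at rest, a log2 difference of -0.52 ± 0.13 (SE), and 0.479 at 12 h against 0.734 at 5 h, a difference of -0.62 ± 0.11, each with an exact p of 0.1. EEF1B2 thus lost footprints relative to its partner between 5 h and 12 h in these libraries.

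The ratio of EEF1A1 to EEF2 was 5.37, 6.47 and 4.98 in the resting libraries, 3.50, 4.42 and 4.05 at 5 h and 3.49, 3.25 and 3.33 at 12 h. Every activated library was below every resting one, and the 12 h libraries lay just below those at 5 h. The log2 difference from rest was -0.49 ± 0.15 at 5 h and -0.73 ± 0.12 at 12 h, and between 12 h and 5 h it was -0.24 ± 0.10, each with an exact p of 0.1. Both genes have a pyrimidine run at their listed start.

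Within the cap-binding complex, the ratio of EIF4A1 to EIF4G1 was 0.446, 0.456 and 0.395 in the resting libraries, 0.340, 0.433 and 0.489 at 5 h and 0.600, 0.622 and 0.474 at 12 h. The 12 h libraries lay above the resting ones by 0.38 ± 0.14 on the log2 scale, with an exact p of 0.1, and the 5 h libraries overlapped both. The ratio of EIF4E to EIF4G1, chosen after the values were seen and so not tested, was 0.958, 1.24 and 1.21 in the resting libraries, 1.11, 1.47 and 1.58 at 5 h and 1.78, 1.56 and 1.71 at 12 h. Its 12 h libraries also lay above all resting ones, with a geometric mean of 1.68 at 12 h and 1.13 at rest. The ratio of EIF4EBP1 to EIF4E, inhibitor to target, had a geometric mean of 0.0613 at rest, 0.0510 at 5 h and 0.0536 at 12 h, overlapped in every comparison and had exact p of 0.4 at 5 h and 0.5 at 12 h against rest.

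**Figure D4:**
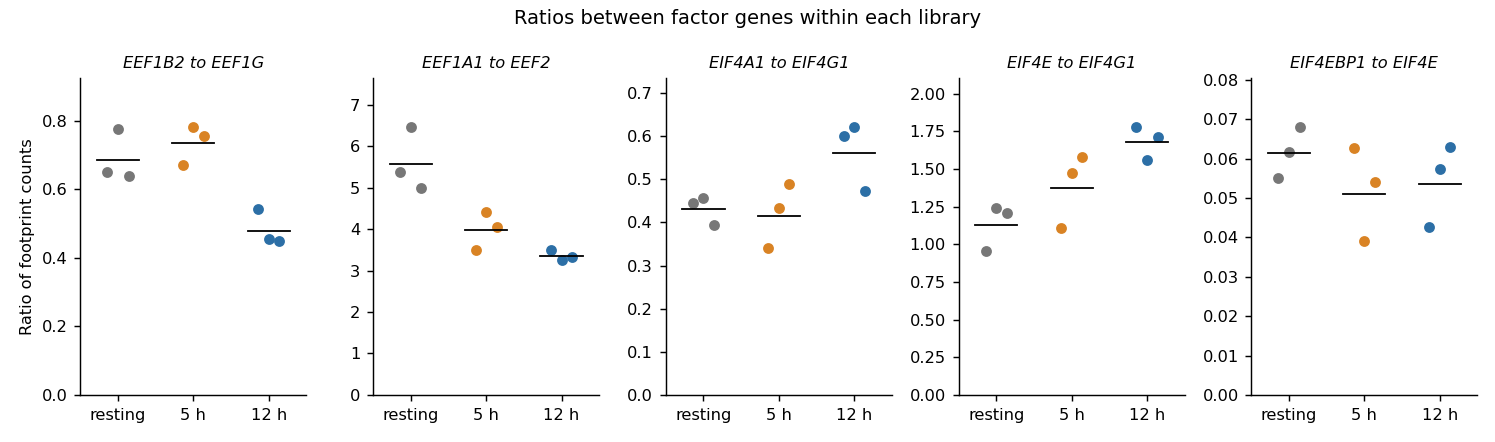
Ratio of footprint counts between pairs of factor genes within each library (linear axes from 0), for resting cells and for cells activated for 5 h and 12 h; points are libraries and lines are geometric means of 3 replicates. EEF1B2 to EEF1G separates at 12 h (0.479, against 0.686 at rest), EEF1A1 to EEF2 lies below rest at both times, and EIF4EBP1 to EIF4E overlaps throughout.

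With TMM scaling, genes with and without the pyrimidine run both included called falls at 12 h. Over all IDs 19.3% were called lower at 12 h against rest, and among abundant IDs 51.7%. Of the 4 genes with the pyrimidine run, EEF1B2 fell, EEF1A1 fell and EEF2 rose at 12 h against rest, while EIF4B was at -0.19 and not called. Of the 5 matched genes without it at a listed start, EIF4G1, EIF5A and EEF1G fell and EIF4E and EIF4A1 were not called. With library totals, EEF1B2 and EIF4G1 were the genes called lower at 12 h. Under scaling to abundant IDs EEF1B2 alone was called lower, with EEF1A1 at -0.02, EIF4G1 at -0.15, EIF5A at 0.03 and EEF1G at 0.07. Among the 4 genes with the run, values at 12 h with TMM scaling ran from -0.74 to 0.41, the whole range seen among the 10. EEF1B2 has the run at 1 of its 2 listed starts. Whether the run bears on these changes was not tested.

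IDs with the most similar course were sought among 4315 others that average at least 50 CPM, by Pearson correlation of log2 CPM over the 9 libraries, which share their scaling and fall into 3 groups. The best match reached 0.995 for EEF1B2 (ENSG00000171320.15) and 0.958 for EEF2 (ENSG00000104964.15), IDs that the tables used here do not name. Over the 10 genes the best match ranged from 0.807, for EIF4EBP1, to 0.995.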

How the data were processed

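The deposited table holds whole-number footprint counts per gene ID, not normalized. Per the submitters' processing notes, the genome build was GRCh38.p13 and the tools were RSEM, Bowtie, DESeq2, bedtools and cutadapt 3.2, with no role for each. The sources used here do not give how fragments matching several genes were counted. A second table deposited by the authors holds log2 values, which equal log2 of the count over 1 size factor per library, plus 1, within 5.12e-09; it served as an alternative.

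All 9 libraries entered 1 fit in edgeR 4.0.16 (R 4.3.3), with TMM scaling and filterByExpr and no replicate block. The procedure was first run on simulated data with changes of 1.5-fold or more, so that run does not bear on smaller changes. Benjamini-Hochberg adjustment covered all 13920 IDs tested. Changes are relative to the scaled library, so a change in footprints per cell would not be seen. CPM uses TMM-scaled library sizes. Intervals and the SE of log2 fold changes come from the quasi-likelihood fit. Its estimate of the spread between replicates draws on all 9 libraries and on other IDs. They do not cover the choice of scaling. Libraries with the same replicate number did not vary together: their deviations from group means, over all IDs tested, correlated at -0.06 to 0.09. This does not show that they were unpaired. Alternatives included DESeq2 1.42.0 and limma 3.58.1.

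The 10 genes and the tests were chosen with earlier results of these data known. All 10 genes were named in each comparison; for each, the 2 IDs most like it were sought. Lists of further translation factors, regulators, ribosomal proteins and cell type markers were written by symbol, and since the tables given pair no Ensembl IDs with symbols, they were not analysed here. The label of the cell line was likewise not checked against markers. RefSeq promoter windows of the table's build were read by gene symbol.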

Additional observations from a re-analysis of the deposited data

Results flagged for a closer look

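For EEF1B2 and EIF4G1 the effect of activation differed between the time points, tested directly as 12 h against 5 h. The effect on EEF1B2 was lower at 12 h by a log2 difference of -0.59 (373 ± 14.5 CPM at 12 h and 564 ± 30.6 CPM at 5 h, SD, n = 3 each), and it was called in every alternative except the test against a 1.5-fold change. The effect on EIF4G1 was lower at 12 h by a log2 difference of -0.24 (198 ± 6.11 CPM at 12 h and 233 ± 12.0 CPM at 5 h). That call, with an edgeR adjusted p of 0.0471, was kept in 3 of 18 alternatives, with adjusted p from 0.0361 to 1 over all 18.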

How the results depend on the processing

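Over 12 other settings and with each library of the groups compared left out in turn, 449 of 540 values for single genes kept their direction and their side of the threshold. With library totals only, 1 of the 10 genes was called at 5 h versus resting, 4 at 12 h versus resting and 1 at 12 h versus 5 h. With TMM over abundant IDs, chosen after seeing the data, 2, 3 and 1 were called at 5 h versus resting, 12 h versus resting and 12 h versus 5 h; by construction this sets the median of abundant IDs near 0, and the median of all IDs was then 0.32 at 5 h and 0.33 at 12 h, against 0.22 and 0.23 with library totals and 0.07 and 0.04 with TMM. For 12 h versus 5 h, 1 gene (not 2) was called with RLE size factors, no low-count filter, at least 50 counts in 3 libraries, limma on the authors' log2 table, only the 6 libraries compared, and with any of the 5 h or 12 h libraries left out. With the replicate block, although no shared variation by replicate number was seen, 1 was called too, and the block changed no other call. The edgeR test against a 1.5-fold change asks for more and called 0 of the 10 genes in each comparison, against 4, 6 and 2 by the standard edgeR test; over all IDs the 1.5-fold test called 1098, 1130 and 617, against 4797, 4887 and 3497 by the standard test. EEF1B2 at 12 h came nearest, with an adjusted p of 0.0812.

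Signs turned as follows. With library totals only, EEF1B2 was 0.01 and EIF4B 0.12 at 5 h, EIF4A1 0.13, EIF4B 0.01 and EIF4EBP1 0.13 at 12 h, and EIF5A 0.02 at 12 h versus 5 h. With TMM over abundant IDs, the 5 h values were EEF1A1 0.04, EEF1B2 0.11, EEF1G 0.01, EIF4B 0.22, EIF4EBP1 0.06, EIF4G1 0.04 and EIF5A 0.02, the 12 h values EEF1G 0.07, EIF4A1 0.23, EIF4B 0.11, EIF4EBP1 0.23 and EIF5A 0.03, and EIF5A was 0.02 at 12 h versus 5 h. With at least 50 counts in 3 libraries, EIF4B was 0.02 at 5 h, EIF4A1 0.02 and EIF4EBP1 0.02 at 12 h, and EIF5A 0.01 at 12 h versus 5 h; for EIF5A limma on the authors' log2 table gave 0.01 and the 6 libraries alone 0.00. The cause was not tested.

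Leaving out 1 library gave 3 to 6 called genes at 5 h, 5 to 6 at 12 h and 1 to 1 at 12 h versus 5 h. It turned signs only of uncalled values: EIF4B (-0.14 to 0.03) and EIF4E (-0.02 to 0.18) at 5 h, EIF4A1 (-0.18 to 0.02) and EIF4EBP1 (-0.24 to 0.08) at 12 h, and EEF1G (-0.02 to 0.07), EIF4E (-0.06 to 0.15), EIF4EBP1 (-0.05 to 0.28) and EIF5A (-0.06 to 0.01) at 12 h versus 5 h. The ratio of EIF4EBP1 to EIF4E ran from -0.12 to 0.23 (log2, 12 h versus 5 h) and that of EIF4A1 to EIF4G1 from -0.17 to 0.09 (5 h versus resting). Over TMM-scaled library sizes, chosen after seeing the data, the summed share differed by -0.10 percentage points at 5 h and -0.14 at 12 h versus resting, against 0.00 and -0.02 over library totals. With 1 library left out it differed over library totals by -0.02 to 0.04, -0.04 to 0.01 and -0.05 to 0.01 percentage points at 5 h versus resting, 12 h versus resting and 12 h versus 5 h. Alternatives for the further gene lists were not run, since those lists were not matched. Depth limits EIF4EBP1 most, with 81 counts in its thinnest library.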
